A study of Homo sapiens with 4 samples.

Results

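NR2F2-positive TE-like cells were trophectoderm (TE)-like cells of human blastoids that carried at least 2 NR2F2 UMIs (unique molecular identifiers, which count captured RNA molecules). NR2F2 is an orphan nuclear receptor gene on chromosome 15 of GRCh38 (96325938 to 96340263, plus strand, GENCODE release 44). There were 199 such cells among 457 TE-like cells, 10902 blastoid cells past the filters and 24564 barcodes in all. A cell was called TE-like when its KRT8, KRT18, GATA3 and CLDN4 UMIs together exceeded those of POU5F1, DPPA5, DPPA4, L1TD1 and TDGF1, and all other kept cells were called epiblast (Epi)-like. The 185 TE-like cells with 0 NR2F2 UMIs (NR2F2-zero) served as the reference, and the 73 cells with 1 UMI stayed out of both classes. Since the members were chosen by NR2F2 and these 9 genes, the levels of the 10 genes are a description and carry no test.

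Blastoids are stem cell models of the blastocyst. Here they were grown from naive human embryonic stem cells kept in PXGL medium, aggregated in microwells and collected at 120 h. The study worked with the established lines H9 and HNES1, and its blastoid methods do not name the line used. The cultures received 4 or 0 mM dimethyl 2-oxoglutarate (dm-αKG), a cell-permeable form of α-ketoglutarate, for the initial 40 h only. Each dose gave 1 hashtagged blastoid culture (an arm) in each of 2 capture runs, so that there were 4 arms, and run 1 also held 40 h aggregates. Blastoids with a single cavity were picked by hand, and the study reports a loss of fragile TE cells on dissociation, so the shares describe the captured cells and not intact blastoids.

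The trophectoderm is the outer epithelium of the blastocyst, which founds the placenta. Its polar part lies over the epiblast and in the human embryo is the side that attaches to the endometrium, whereas the mural part surrounds the cavity. NR2F2 is used as a marker of maturing, polar trophectoderm in human embryos, and KRT8 and KRT18 code for the keratin pair of simple epithelia.

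Members came to 97 of 175 TE-like cells at 4 mM and 46 of 208 at 0 mM in run 2, and to 49 of 56 at 4 mM and 7 of 18 at 0 mM in run 1. The NR2F2-zero cells numbered 43, 129, 5 and 8 in the same arms. No member barcode was shared between the runs, although 28 barcodes of the deposited matrices were. The run 1 arms had under 10 cells in at least 1 of the 2 classes, and they therefore stayed outside the fit described below, with their values given beside it.

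The labels were checked against the markers. Levels are given in CPM, for which the UMIs of a gene were summed over the cells of a class within an arm. The sum was scaled to the total UMIs of those same cells, as in the usual CPM unit. KRT8 stood at 3354 CPM at 4 mM and 3433 CPM at 0 mM in the run 2 members. KRT18 stood at 6893 and 7589 CPM in the same order. The 15 trophectoderm markers summed to between 14107 and 16087 CPM over the 4 arms of members, to between 8392 and 15395 CPM in NR2F2-zero cells and to between 347 and 454 CPM in Epi-like cells. Most of each sum came from KRT8 and KRT18, which chose the TE-like cells together with GATA3 and CLDN4, so they describe the choice and are no separate check of it. NR2F2 itself, which chose the members, was at 267 CPM at 4 mM and 212 CPM at 0 mM in run 2, and at 378 CPM at 4 mM and 101 CPM at 0 mM in run 1. The median member carried 4 NR2F2 UMIs at 4 mM and 3 at 0 mM in run 2, and 12 at 4 mM and 2 at 0 mM in run 1, and the highest count was 31.

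The 6 amnion markers summed to between 3.2 and 10.6 CPM in members and between 0 and 1.8 CPM in NR2F2-zero cells, with GABRP and TNC at 0 in every arm of members. The 6 mesenchyme markers summed to between 1.0 and 10.6 CPM in members, against 0 to 5.1 CPM in NR2F2-zero cells, with POSTN and DCN at 0. The 10 primitive endoderm markers summed to between 57.3 and 366 CPM in members, the highest in the 7 cells of run 1 at 0 mM, to between 78.0 and 174 CPM in NR2F2-zero cells and to between 19.3 and 23.6 CPM in Epi-like cells. Of 5 primitive endoderm list genes tested in the comparison described below, COL4A1 and LAMA1 were higher and GATA6 lower in members, and among the purer cells none of the 4 tested was higher; the part of other cells in the results was not tested. The 15 epiblast markers, of which some helped to choose the cells, summed to between 664 and 1696 CPM in members, 1052 and 1970 CPM in NR2F2-zero cells and 5630 and 5862 CPM in Epi-like cells.

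Members made up 87.5% of TE-like cells at 4 mM in run 1 (95% Clopper-Pearson interval 75.9 to 94.8%) and 38.9% at 0 mM (17.3 to 64.3%). In run 2 they made up 55.4% at 4 mM (47.7 to 62.9%) and 22.1% at 0 mM (16.7 to 28.4%). The share was higher at 4 mM in both runs, by 48.6 percentage points in run 1 (Newcombe interval 23.5 to 68.2) and by 33.3 points in run 2 (23.7 to 42.1). Both intervals cover counting error only. With 2 arms per dose an exact two-sided permutation test cannot go below p = 0.33, so that test could not separate the doses. When every cell was thinned to 5000 UMIs, 69.6% of TE-like cells at 4 mM and 22.2% at 0 mM in run 1, and 50.9% at 4 mM and 21.2% at 0 mM in run 2, still had an NR2F2 UMI. In Epi-like cells, which should lack it, the thinned share was between 0.28 and 0.40% over the 4 arms, and 10 Epi-like blastoid cells carried 2 or more NR2F2 UMIs. The median depth of TE-like cells was 32758 UMIs at 4 mM and 25724 UMIs at 0 mM in run 1, and 16487 at 4 mM and 16486 at 0 mM in run 2, against 15501 to 30048 UMIs in the Epi-like arms.

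**Figure D1:**
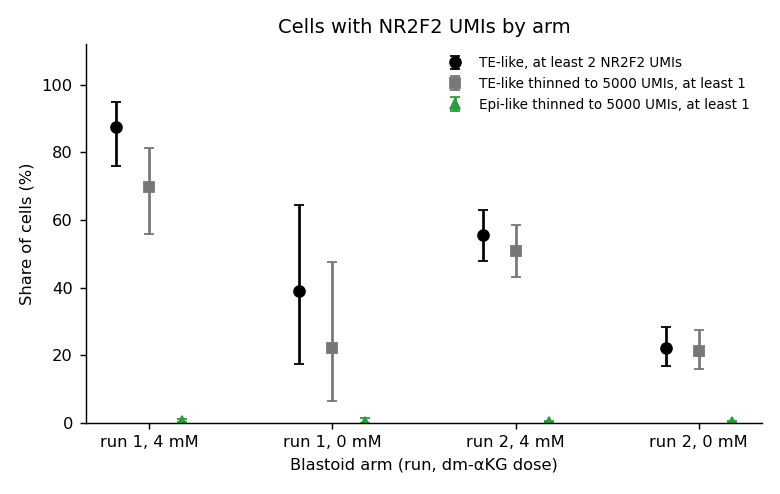
Share of cells with NR2F2 UMIs (vertical axis, %) in each blastoid arm (horizontal axis), with 95% Clopper-Pearson intervals. Circles give TE-like cells with at least 2 NR2F2 UMIs, squares TE-like cells thinned to 5000 UMIs with at least 1, and triangles thinned Epi-like cells with at least 1. Circles stand at 87.5 and 38.9% in run 1 and at 55.4 and 22.1% in run 2 (4 mM, then 0 mM), and all triangles lie below 0.5%.

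Depth and purity differed between the classes. In run 2 the median member had 17348 UMIs at 4 mM, against 13733 in NR2F2-zero cells, and 20080 UMIs at 0 mM, against 15468. Cells whose TE markers were at least 4 times their epiblast markers made up 85.6% of members at 4 mM, against 74.4% of NR2F2-zero cells, and 80.4% at 0 mM, against 66.7%. Doublets were removed only by hashtag purity, so 2 cells of the same arm in 1 droplet remain possible. Repeats with thinned cells and with the purer cells were therefore run.

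Which genes went with NR2F2 was asked within each arm, members against NR2F2-zero cells. In run 2, 237 genes were higher and 226 lower in members out of 7967 tested (2.97 and 2.84% of genes, edgeR quasi-likelihood test on summed UMIs, adjusted p under 0.05). These shares are the background for each count of list genes from this fit. The median change of all genes tested was -0.00 on the log2 scale, and the 463 genes called had a median absolute change of 0.91. This fit used 2 arms and 4 sums with 1 residual degree of freedom, and its prior degrees of freedom were infinite, so that every gene took the common spread. With all 4 arms (8 sums, 3 residual degrees of freedom) 131 genes were higher and 127 lower of 6234 tested (2.1 and 2.04%), and DESeq2's Wald test on the 4 sums of run 2 called 25 higher and 15 lower. Of the 463 genes, 240 were also called in the same direction with all 4 arms, out of 413 tested there. Among the purer cells of run 2, 157 genes were higher and 135 lower of 6753 tested. Those counts are the background for list genes among the purer cells.

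The run 1 arms gave a reading from cells outside this fit. Of 364 called genes with a mean of at least 20 CPM, 320 (87.9%) had the same sign in run 1 at 4 mM, against 60.3% of all 4633 genes at that level. In run 1 at 0 mM, with 7 members and 8 NR2F2-zero cells, the same sign was seen for 261 genes (71.7%), against 53.7% of all genes. Within run 2, 362 of the 364 had the same sign in both arms, which the fit on those arms favours.

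PTN (pleiotrophin, a heparin-binding growth factor; chromosome 7, 137227341 to 137343774, minus strand) was at 1202 CPM at 4 mM and 613 CPM at 0 mM in the run 2 members, against 241 and 64.0 CPM in the NR2F2-zero cells of the same arms. In run 1 it was at 1084 CPM at 4 mM and 658 CPM at 0 mM in members, against 15.4 and 57.0 CPM in NR2F2-zero cells. The 4 arms of members all lay above the 4 arms of NR2F2-zero cells, and the change was 2.77 ± 0.11 (log2 fold change ± SE; 6.81-fold; n = 2 arms, edgeR adjusted p = 2.1e-128), or 3.16 ± 0.25 with all 4 arms (adjusted p = 7.94e-07). The very small p of the run 2 fit rests on the common spread, and so does each SE from that fit. These SEs do not measure how far the 2 arms differed. For PTN the log2 ratios of the run 2 arms, with 5 CPM added, were 2.29 at 4 mM and 3.16 at 0 mM. With all 4 arms every one of the 15 largest rises and 14 of the 15 largest falls described below also passed, with edgeR adjusted p values up to 0.0451, and the remaining fall, NMU, was too low to be tested there. The 4 arms include the run 2 cells on which these genes were chosen, so passing again was partly fixed in advance. Run 1 alone tested 14 of these 30 genes, and 8 passed.

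PGF (placental growth factor; chromosome 14, 74941834 to 74955626, minus strand) was at 82.3 CPM at 4 mM and 139 CPM at 0 mM in run 2 members, against 21.4 and 7.71 CPM in NR2F2-zero cells. In run 1 it was at 67.8 CPM at 4 mM and 5.31 CPM at 0 mM in members, against 5.12 and 4.38 CPM in NR2F2-zero cells. The last of these arms thus showed hardly any difference, with 1 UMI in each class behind its values. Over run 2 the change was 3.40 ± 0.24 (10.5-fold; edgeR adjusted p = 4.34e-43), and 1.65e-05 with all 4 arms.

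CCKBR, the gastrin and cholecystokinin receptor (chromosome 11, 6259806 to 6272127, plus strand), was at 221 CPM at 4 mM and 159 CPM at 0 mM in run 2 members, against 91.6 and 26.3 CPM in NR2F2-zero cells. In run 1 its values were 310 CPM at 4 mM and 101 CPM at 0 mM in members, against 35.8 and 4.38 CPM in NR2F2-zero cells. The classes did not overlap over the 4 arms (log2 fold change 1.92 ± 0.16, edgeR adjusted p = 9.26e-30, and 4.05e-05 with all 4 arms). RGS16, a brake on G protein signalling, was higher by 3.28 ± 0.27, at 106 CPM at 4 mM and 69.4 CPM at 0 mM in run 2 members, against 21.4 and 3.18 CPM in NR2F2-zero cells. TINAGL1, a secreted matrix protein gene, was higher by 2.90 ± 0.25, and in run 1 it had no UMI in the NR2F2-zero cells of either dose, against 114 CPM at 4 mM and 58.4 CPM at 0 mM in members.

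FABP7, a fatty acid-binding protein gene, and H19, an imprinted noncoding RNA, rose in run 2 but not in every arm of run 1. FABP7 was at 1047 CPM at 4 mM and 475 CPM at 0 mM in run 2 members, against 223 and 65.8 CPM in NR2F2-zero cells (2.53 ± 0.11), and in run 1 at 1138 CPM at 4 mM and 117 CPM at 0 mM in members, against 41.0 and 140 CPM in NR2F2-zero cells. H19 was at 447 CPM at 4 mM and 204 CPM at 0 mM in run 2 members, against 102 and 30.4 CPM (2.42 ± 0.15), and in run 1 at 546 CPM at 4 mM and 47.8 CPM at 0 mM, against 5.12 and 105 CPM. For both genes the 0 mM arm of run 1 went the other way. The other fatty acid-binding protein genes tested did not pass, with FABP5 at 0.00 ± 0.07 and FABP3 at -0.50 ± 0.26, although FABP3 was lower among the purer cells (-1.31, edgeR adjusted p = 0.00423). CDKN1C, an imprinted inhibitor of cyclin-dependent kinases, was at 200 CPM at 4 mM and 245 CPM at 0 mM in run 2 members, against 71.8 and 22.2 CPM in NR2F2-zero cells (2.60 ± 0.16; with all 4 arms, edgeR adjusted p = 4.05e-05). In run 1 CDKN1C was at 111 CPM at 4 mM and 5.31 CPM at 0 mM in members, against 10.2 and 4.38 CPM. The 0 mM arm there thus hardly differed. Among the 15 imprinted genes listed, 9 were tested, with H19 and CDKN1C higher and the noncoding RNA MEG3 (-0.94 ± 0.12) and PHLDA2 lower. MEG3 and PHLDA2 lost their calls among the purer cells.

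The rest of the 15 largest rises among genes with at least 20 CPM were the noncoding RNAs LINC01356 (2.73 ± 0.18) and UCA1, and FAM89A, SH3BP5, MID1, the basic helix-loop-helix factor HAND1 and the steroid enzyme CYP11A1. All 15 were higher in members in run 1 at 4 mM, and 13 of 15 at 0 mM. None lost its call with all 4 arms or among the purer cells. Without the 0 mM arm of run 2, FAM89A, H19, UCA1, MID1 and CYP11A1 no longer passed in the fit on the remaining arms (edgeR adjusted p of 0.0617, 0.0673, 0.0712, 0.202 and 0.111). DESeq2's Wald test did not call PGF, RGS16, CDKN1C, UCA1, MID1 or CYP11A1, and sums of thinned cells did not call UCA1, MID1 or CYP11A1 (edgeR adjusted p between 0.203 and 0.807).

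**Figure D2:**
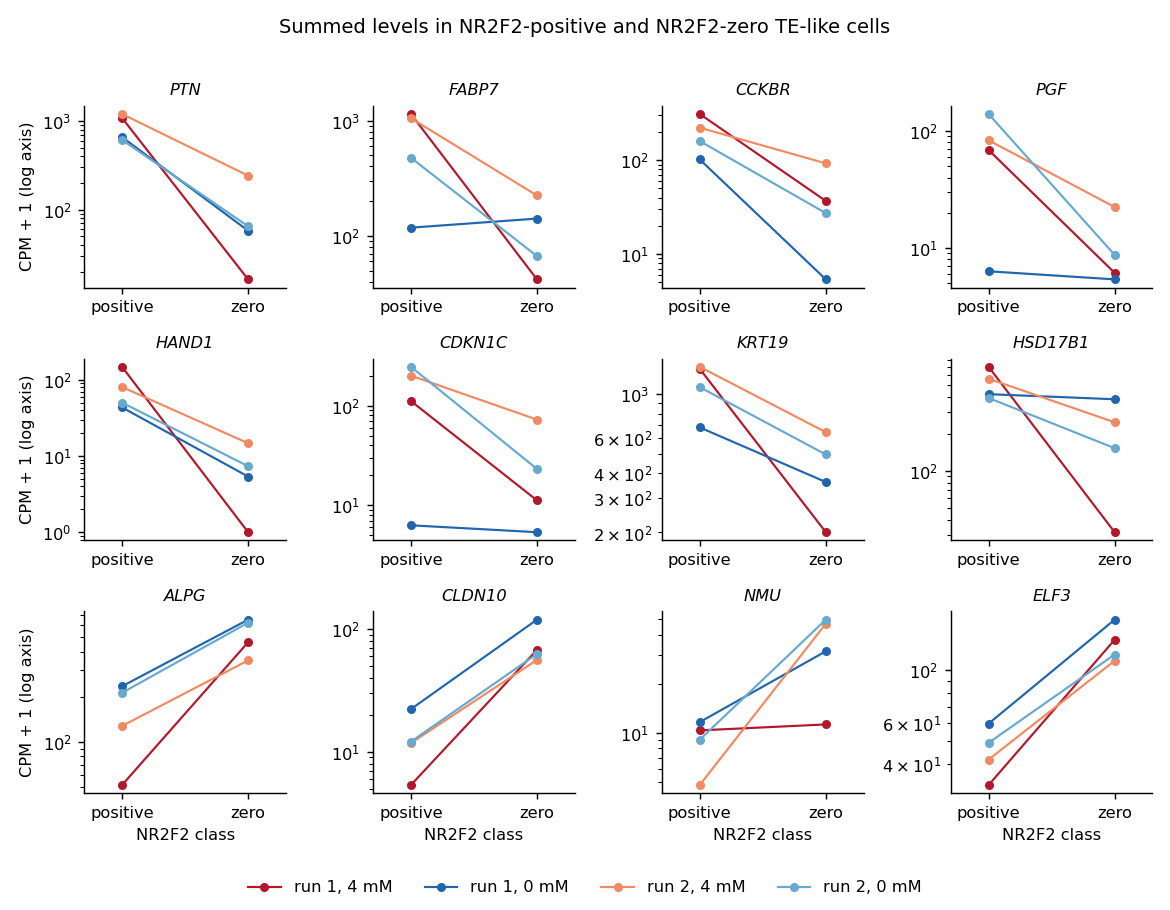
Summed levels (CPM + 1, log axes that differ between panels) of 12 genes in NR2F2-positive and NR2F2-zero TE-like cells, with 1 point per arm and class and 1 line per arm. PTN, CCKBR, HAND1 and KRT19 were higher and ALPG, CLDN10, NMU and ELF3 lower in the positive class in every arm; FABP7 in run 1 at 0 mM (117 against 140 CPM) went the other way.

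The genes lower in members were led by NMU, which codes for the peptide neuromedin U (chromosome 4, 55595229 to 55636698, minus strand). It was at 3.77 CPM at 4 mM and 8.05 CPM at 0 mM in run 2 members, against 45.8 and 48.6 CPM in NR2F2-zero cells (log2 fold change -3.07 ± 0.34, edgeR adjusted p = 2.1e-16). In run 1 it was at 9.33 CPM at 4 mM and 10.6 CPM at 0 mM in members, against 10.2 and 30.7 CPM, so the 4 mM arm there hardly differed. SCGB3A2, a secretoglobin gene, and CLDN10, a tight junction claudin gene, had changes of -2.43 ± 0.27 and -2.40 ± 0.28. CLDN10 was at 10.8 CPM at 4 mM and 11.1 CPM at 0 mM in run 2 members, against 55.0 and 61.7 CPM in NR2F2-zero cells, and in run 1 at 4.35 CPM at 4 mM and 21.2 CPM at 0 mM, against 66.6 and 118 CPM.

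ALPG, the germ cell alkaline phosphatase gene, which naive stem cells also express, was the most abundant gene among the 15 largest falls. It was at 126 CPM at 4 mM and 211 CPM at 0 mM in run 2 members, against 348 and 623 CPM in NR2F2-zero cells, and in run 1 at 50.4 CPM at 4 mM and 234 CPM at 0 mM in members, against 461 and 653 CPM. The classes did not overlap (-1.52 ± 0.11, edgeR adjusted p = 7.68e-38, and 3.31e-05 with all 4 arms). Epi-like cells held 418 CPM at 4 mM and 654 CPM at 0 mM in run 2, close to the NR2F2-zero cells. The vacuolar proton pump subunit gene ATP6V0D2 (-1.57 ± 0.28), EFHD1, ARHGAP18, ATP13A2, COL6A1, the epithelial factor ELF3 (-1.33 ± 0.18), LASP1, PRAP1 and TRIM8 were also lower. Among the 15, HSPB1 (-1.71 ± 0.22) and CCDC50 lost their calls among the purer cells, with edgeR adjusted p values of 0.23 and 0.206. HSPB1 was also higher, not lower, in members in run 1 at 0 mM (53.1 against 8.76 CPM). All 15 were lower in run 1 at 4 mM and 13 of 15 at 0 mM. Without the 4 mM arm of run 2, HSPB1, ARHGAP18, ATP13A2, CCDC50, COL6A1, PRAP1 and TRIM8 no longer passed (edgeR adjusted p between 0.0838 and 0.878), and without the 0 mM arm HSPB1, ATP13A2 and CCDC50 did not (0.124 to 0.283). DESeq2's Wald test did not call HSPB1, ATP6V0D2, EFHD1, ARHGAP18, ATP13A2, CCDC50, COL6A1, LASP1 or TRIM8, and sums of thinned cells did not call SCGB3A2, CLDN10, ATP6V0D2, EFHD1, CCDC50, COL6A1, LASP1, PRAP1 or TRIM8 (edgeR adjusted p between 0.0586 and 0.756).

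The study's polar list, 25 genes taken from human embryo data around NR2F2, was higher in members nearly throughout. Of its 24 other genes 15 were tested, and 14 were higher, none lower, with a median change of 1.92 against -0.00 for all genes tested. The list was drawn up with NR2F2 among its genes, and it was known from earlier results of these data, so its direction is not independent evidence. A gene could also be tested through its level in members alone. With doses pooled, run 2 NR2F2-zero cells held CCR7 at 2.10, MPP1 at 3.50 and SP6 at 4.20 CPM. The count and the median are thus partly set by the filter on low counts. SP6 (2.68 ± 0.42) and VGLL1 (1.38 ± 0.29), a zinc finger factor and a TEAD cofactor, the chemokine receptor gene CCR7 (2.91 ± 0.56), TENM3 (1.57 ± 0.29), MPP1 (2.03 ± 0.52) and the amino acid transporter gene SLC38A1 (0.59 ± 0.15) were higher, and LGALS3 (0.25 ± 0.36) did not pass. FYB1, too low to be tested, had 33 UMIs in run 2 members and none in NR2F2-zero cells, which makes it at least 11.02-fold higher against a floor of 3 counts over both arms. All 15 ratios were positive in both run 2 arms and in run 1 at 4 mM, but only 7 in run 1 at 0 mM, with 7 negative. With all 4 arms 9 were tested and 6 were higher, SLC38A1 not among them (edgeR adjusted p = 0.114).

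Summed without NR2F2, the polar list stood at 920 CPM at 4 mM (exact Poisson interval 877 to 965) and 848 CPM at 0 mM (792 to 907) in run 2 members, against 402 (355 to 453) and 212 CPM (194 to 232) in NR2F2-zero cells. In run 1 it stood at 1098 CPM at 4 mM and 366 CPM at 0 mM in members, against 205 and 258 CPM in NR2F2-zero cells. Epi-like cells held between 109 and 128 CPM. Members at 0 mM in run 2 thus had a higher polar list level than NR2F2-zero cells at 4 mM, by intervals that cover counting error only.

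The mural list, also 25 genes from the study, moved less. Of 21 genes tested, 4 were lower and 2 higher, with a median of -0.41. GPRC5A, a receptor gene (-1.22 ± 0.16), S100A16 (-0.69 ± 0.11), the vesicle traffic gene RAB25 (-0.74 ± 0.17) and the proton pump subunit gene ATP6V0A4 (-1.04 ± 0.28) were lower, with all 4 arms too. The endocytic receptor gene LRP2 (0.65 ± 0.15) and CD53 (1.02 ± 0.31) were higher, and both lost their calls with all 4 arms (edgeR adjusted p = 0.0517 and 0.116) and among the purer cells. CDX2, an early trophectoderm factor gene, had a change of -0.89 ± 0.31 that did not pass (edgeR adjusted p = 0.0611), and it was higher in members in both run 1 arms. The summed mural list was at 1956 CPM at 4 mM and 2483 CPM at 0 mM in run 2 members, against 2781 and 2652 CPM in NR2F2-zero cells, and at 2616 CPM at 4 mM and 2692 CPM at 0 mM in run 1 members, against 2637 and 3465 CPM.

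**Figure D3:**
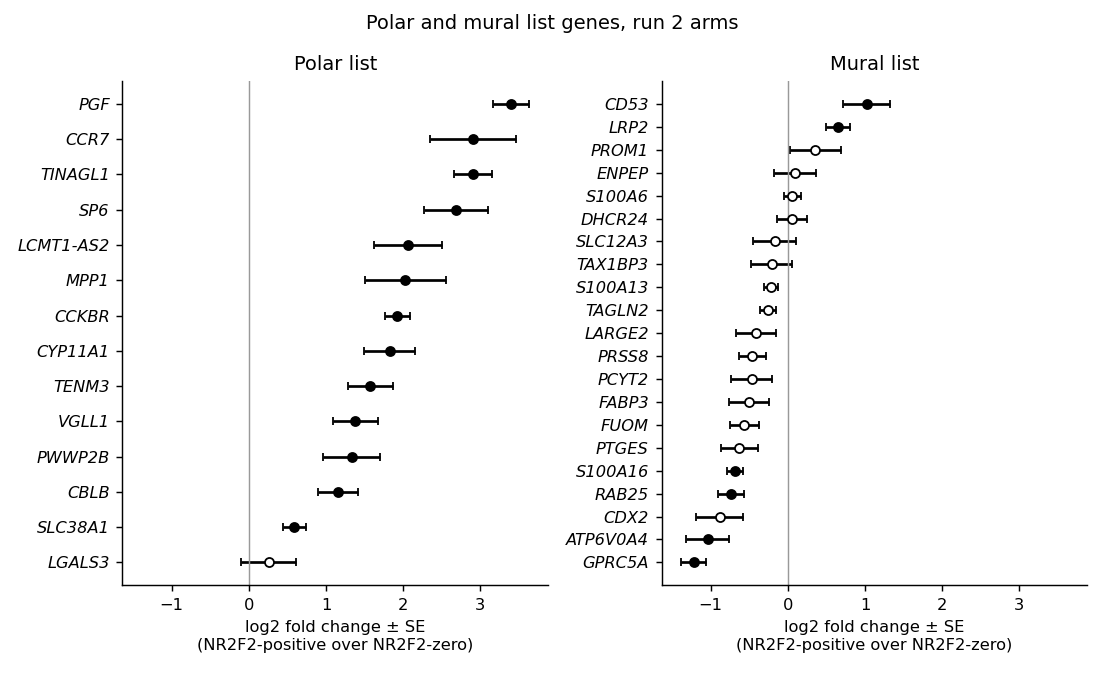
Log2 fold change (horizontal axes, NR2F2-positive over NR2F2-zero TE-like cells, run 2, with SE bars) of the polar list genes (left) and the mural list genes (right) that were tested and had UMIs in both classes, without NR2F2. Filled points passed an adjusted p of 0.05. The polar genes run up to PGF at 3.40 and the mural genes down to GPRC5A at -1.22. SE bars rest on the common spread, not on the spread between arms.

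Of 18 trophectoderm identity genes tested outside the rule, 11 were higher, 1 (ELF3) was lower and 6 did not pass, with a median of 1.01. Among the purer cells 7 of 17 were higher, and in run 1 at 0 mM the list's median log2 ratio was -0.00, against 1.25 at 4 mM. KRT19, a keratin gene, was at 1378 CPM at 4 mM and 1088 CPM at 0 mM in run 2 members, against 643 and 496 CPM in NR2F2-zero cells (1.11 ± 0.09), and it was higher in both run 1 arms. KRT7 was at 49.0 CPM at 4 mM and 10.1 CPM at 0 mM in run 2 members, against 7.64 and 5.45 CPM. HAND1 was at 79.6 CPM at 4 mM and 49.3 CPM at 0 mM in run 2 members, against 13.7 and 6.35 CPM, and at 147 CPM at 4 mM and 42.5 CPM at 0 mM in run 1 members, against 0 and 4.38 CPM (2.76 ± 0.29). The factor genes ARID3A (1.34 ± 0.15), GRHL1 (1.33 ± 0.28), DLX3 (1.18 ± 0.30), TFAP2A (1.41 ± 0.41) and GATA2 (0.59 ± 0.14) were higher, whereas TFAP2C (-0.25 ± 0.15) and TEAD4 (-0.42 ± 0.19) did not pass. GATA2, DLX3 and TFAP2A lost their calls among the purer cells. Among genes that chose the cells, POU5F1 was at 151 CPM at 4 mM and 240 CPM at 0 mM in run 2 members, against 357 and 427 CPM, and GATA3 at 145 and 138 CPM, against 121 and 98.0 CPM.

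Later trophoblast genes were mostly near detection. Of 16 cytotrophoblast genes 8 were tested and 3 were higher, namely MSX2 (1.40 ± 0.21), OVOL1 (1.74 ± 0.38) and XAGE2 (1.49 ± 0.27). TP63 had 1.07 ± 0.45 and did not pass. Only 2 of 18 syncytiotrophoblast and 2 of 11 extravillous trophoblast genes were abundant enough to be tested, and OVOL1 and TCF7L2 (1.16 ± 0.19) were higher. Of 9 placental steroid synthesis genes tested 4 were higher and none lower. HSD17B1, which makes estradiol, was at 561 CPM at 4 mM and 390 CPM at 0 mM in run 2 members, against 247 and 152 CPM in NR2F2-zero cells (1.27 ± 0.11), and in run 1 at 700 CPM at 4 mM and 419 CPM at 0 mM, against 30.7 and 381 CPM. CYP11A1, which starts steroid synthesis from cholesterol, had 1.83 ± 0.33, and the sulfatase gene STS had 1.10 ± 0.24 and lost its call among the purer cells. HSD3B1 was at 32.3 CPM at 4 mM and 7.04 CPM at 0 mM in run 2 members, against 3.05 and 0.45 CPM.

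Naive pluripotency genes were lower in members where they changed. Of 17 tested outside the rule, 6 were lower and none higher, among them ALPG, DNMT3L (-0.90 ± 0.15) and KHDC1L (-0.69 ± 0.09), with a median of -0.36. Among the purer cells 4 were lower, and the epiblast marker sums given above moved with these genes; their part in the result was not tested. Of the fluid pump and channel genes 9 were tested, with the aquaporin gene AQP3 lower (-1.10 ± 0.18) and the carbonic anhydrase genes CA2 (1.98 ± 0.37) and CA12 higher, the last of which lost its call among the purer cells. Among 15 endocytosis and lysosome genes, the cathepsin genes CTSL (0.63 ± 0.11) and CTSV (0.72 ± 0.14) were higher with LRP2 and DAB2, which lost their calls among the purer cells, and both proton pump subunits named above were lower.

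Of 42 S phase genes tested PCNA was higher, and of 52 G2/M genes UBE2C and CENPA were lower, with medians of 0.14 and -0.02. Such counts are close to the shares over all genes, 2.97% higher and 2.84% lower. UBE2C did not hold within arms: it was at 207 CPM at 4 mM and 88.5 CPM at 0 mM in run 2 members, against 168 and 258 CPM. PCNA lost its call among the purer cells. None of 20 cholesterol synthesis genes passed (median -0.03). Among 32 genes of the TCA cycle and α-ketoglutarate metabolism, 4 were lower and none higher, with ornithine aminotransferase OAT at -1.10 ± 0.15 and ACO1 at -1.25 ± 0.28, and the list's median was 0.03. These 4 are set against 2.84% of all genes lower, and with all 4 arms 2 of 30 were lower. Among 25 α-ketoglutarate-dependent dioxygenase genes TET1 (-0.44 ± 0.13) and TET2 (-0.60 ± 0.15), which oxidise methylated cytosine, were lower and EGLN3 higher, and TET1 and TET2 lost their calls among the purer cells. Among 19 growth factor and receptor genes, PGF, PTN and the receptor gene LIFR were higher and GDF15, FGFR3 and IL6ST lower, with a median of 0.04, and of these only PGF and PTN kept their calls among the purer cells. Among 20 junction genes CTNNB1, which codes for β-catenin, was higher, and CLDN10 and the cingulin gene CGN were lower (median -0.02). None of 9 YAP and TEAD target genes passed, and of 5 nuclear receptor and retinoid pathway genes tested besides NR2F2 only NR6A1 was higher, with a median of 0.30, and it lost its call among the purer cells.

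Levels were also set against the number of NR2F2 UMIs in the cell. With doses pooled in run 2, the polar list without NR2F2 was at 256, 413, 701 and 955 CPM in cells with 0, 1, 2 and 3 or more NR2F2 UMIs, and the mural list at 2681, 2667, 2428 and 2051 CPM. PTN was at 105, 233, 707 and 1086 CPM and ALPG at 560, 349, 187 and 146 CPM in the same classes. In run 2 the cells with 1 UMI, just outside the threshold, thus lay between the NR2F2-zero cells and the 36 members with exactly 2 UMIs, just inside it. The mix of doses shifted over these classes, with 43 cells at 4 mM and 129 at 0 mM among those with 0 UMIs, and 75 at 4 mM and 32 at 0 mM among those with 3 or more. Within run 2 the polar list was at 402, 501, 918 and 921 CPM at 4 mM and at 212, 328, 434 and 1029 CPM at 0 mM. PTN was at 241, 338, 1022 and 1246 CPM at 4 mM and at 64.0, 132, 318 and 741 CPM at 0 mM, so both ran upward within each dose, except that the polar list hardly differed between the last classes at 4 mM. In run 1, where 5 cells had 1 UMI and 6 had 2, the order did not hold, with the polar list at 234, 227, 561 and 1059 CPM, the mural list at 3083, 4253, 2507 and 2634 CPM and ALPG at 564, 711, 254 and 54.7 CPM.

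**Figure D4:**
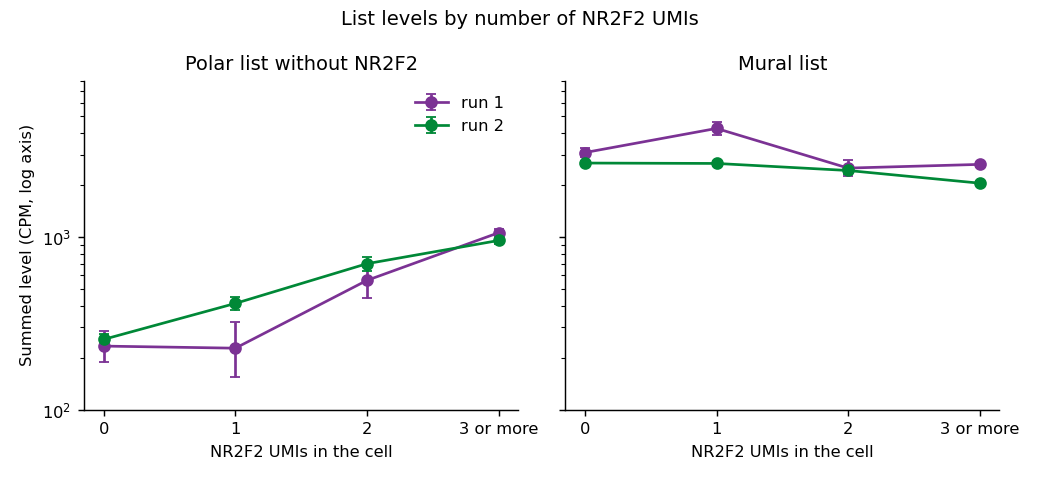
Summed level (CPM, log axis, with exact 95% Poisson intervals) of the polar list without NR2F2 (left) and the mural list (right) in TE-like cells with 0, 1, 2 and 3 or more NR2F2 UMIs, doses pooled within each run. The polar list runs up to 955 CPM in run 2 and 1059 CPM in run 1 at 3 or more UMIs, and the mural list in run 2 ends at 2051 CPM.

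At equal depth most members held PTN. In run 2, with cells thinned to 5000 UMIs, PTN was seen in 91.8% of members at 4 mM (84.4 to 96.4%) and 76.1% at 0 mM (61.2 to 87.4%), against 44.2% (29.1 to 60.1%) and 23.3% (16.3 to 31.5%) of NR2F2-zero cells. In Epi-like cells it was seen in 0.80 and 0.96% of cells. CCKBR was seen in 65 of 97 members at 4 mM and 22 of 46 at 0 mM, against 14 of 43 and 11 of 129 NR2F2-zero cells and under 0.3% of Epi-like cells. HAND1 was rarer, in 30.9% of members at 4 mM and 19.6% at 0 mM, against 0 of 43 (which allows up to 8.22% of such thinned cells to hold a HAND1 UMI, Clopper-Pearson) and 5 of 129 NR2F2-zero cells. At full depth the shares with HAND1 were 54.6% of members at 4 mM and 32.6% at 0 mM, against 16.3 and 6.98% of NR2F2-zero cells. ALPG was seen in 33.0% of members at 4 mM and 54.3% at 0 mM, against 51.2 and 84.5% of NR2F2-zero cells and 76.5 and 86.7% of Epi-like cells.

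Members varied among themselves. In run 2 the polar list without NR2F2 ranged from 0 to 2847 CPM per cell at 4 mM (median 839) and from 0 to 5660 CPM at 0 mM (median 580), against medians of 280 and 175 CPM in NR2F2-zero cells, so the classes overlapped cell by cell. The polar list exceeded the mural list in 20 of 97 members at 4 mM and 7 of 46 at 0 mM, against 3 of 43 and 1 of 129 NR2F2-zero cells. Over the 97 members at 4 mM, polar and mural sums per cell had a Spearman rho of -0.48, and over the 46 at 0 mM of -0.18. The NR2F2-zero cells of run 2 had 0.05 at 4 mM and 0.30 at 0 mM, and the 49 members of run 1 at 4 mM had -0.70. Both sums share the cell's depth and total, so these are descriptions only.

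**Figure D5:**
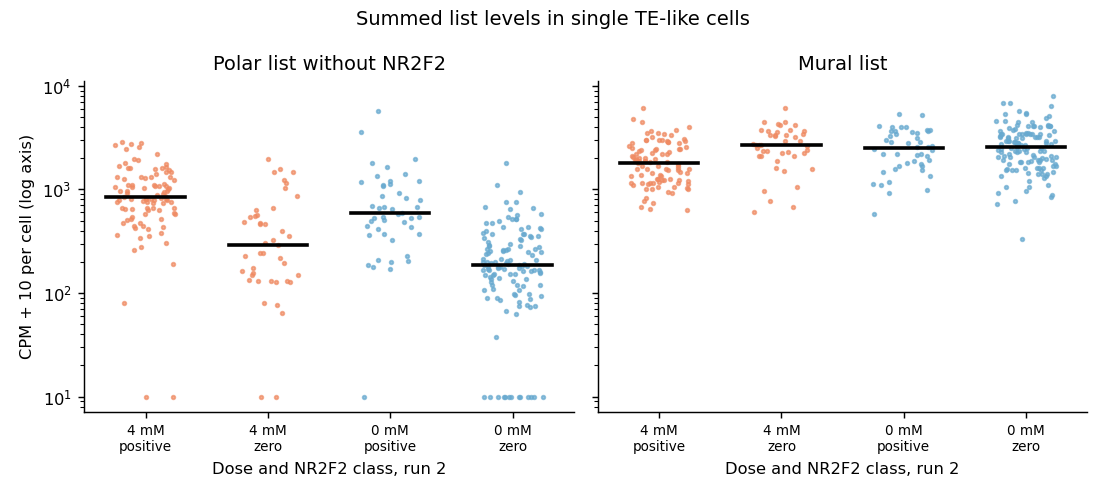
Summed level per cell (CPM + 10, log axis) of the polar list without NR2F2 (left) and the mural list (right) in single TE-like cells of run 2, by dose and NR2F2 class, 1 point per cell with horizontal bars at the medians. Polar medians are 839 and 580 CPM in positive cells (4 mM, then 0 mM) and 280 and 175 CPM in zero cells, before the 10 is added.

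Whether members differed by dose was tested over all 8 sums of both classes with the run in the model. Both class sums of an arm entered unpaired, so the 3 residual degrees of freedom come partly from sums of the same culture. The test of the difference between doses below used the same fit. No gene passed in either direction among 7157 tested (0 and 0%), while 164 were higher and 218 lower at an unadjusted edgeR p under 0.05. DESeq2's Wald test called 1 gene, TUBB4A, as lower at 4 mM. Leaving out 1 arm, which also changed the genes tested and the estimate of the spread, gave between 4 and 26 genes higher and 3 and 36 lower, the most without the run 2 arms (26 and 34 without 0 mM, 18 and 36 without 4 mM). KRT7 had the smallest p, with a change of 2.39 ± 0.45 at 4 mM (edgeR adjusted p = 0.188), followed by LINC01356 (1.16 ± 0.22), and FABP7 had 1.84 ± 0.41 and ALPG -1.31 ± 0.31 (edgeR adjusted p = 0.262 each). These changes are larger than their errors but did not pass the adjustment. With no filter on low counts, a fit with infinite prior degrees of freedom, 17 genes passed as higher and 9 as lower. FABP7 (1.94) and H19 (1.83) were among the higher. With 1 arm left out, the change lay between 1.47 and 2.92 for FABP7 and between 1.49 and 3.17 for H19. Neither passed with DESeq2's Wald test or among the purer cells.

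The contrast of members with NR2F2-zero cells was not shown to differ between doses. Of 7157 genes none passed (0 and 0%), with 94 above and 118 below at an unadjusted edgeR p under 0.05, and DESeq2's Wald test called none. For PTN the difference between doses (4 mM minus 0 mM, log2 scale) was -0.50 ± 0.57, for CCKBR -0.72 ± 0.52, for FABP7 0.98 ± 0.67 and for ALPG -0.58 ± 0.42. The 4 mM and 0 mM contrasts of run 2 stood side by side at 2.29 and 3.16 for PTN, 1.23 and 2.39 for CCKBR, and -1.43 and -1.54 for ALPG (log2 ratios with 5 CPM added).

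Promoters of the genes that moved were searched for AGGTCA, the half-site bound by many nuclear receptors, on both strands, in windows of 300 bases (250 before to 50 after the start site, RefSeq, GRCh38.p14). It was found in 10 of 176 promoters of genes higher in members (5.68%) and 16 of 175 of genes lower (9.14%), against 9.56% of all 6425 tested genes with a promoter and 13.9% of all 27305 promoters. The letters were thus not more common beside genes higher in members. MID1, which codes for a ubiquitin ligase on microtubules, was the only gene with a match among those of the 15 largest rises that had a window, and its window (chrX:10833634-10833933, minus strand) is shown with the match, on the reverse strand, in capitals.
MID1: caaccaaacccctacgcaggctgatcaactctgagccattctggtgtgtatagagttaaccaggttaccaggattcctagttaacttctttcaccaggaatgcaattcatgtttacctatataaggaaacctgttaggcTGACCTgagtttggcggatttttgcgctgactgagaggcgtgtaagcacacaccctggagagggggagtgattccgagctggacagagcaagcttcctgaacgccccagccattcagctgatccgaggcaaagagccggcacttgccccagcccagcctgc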

How the data were processed

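The deposited matrices hold counts (UMIs per gene and barcode) and hashtag counts. Per the authors, reads were demultiplexed by bcl2fastq 2.20.0.422 and counted against GRCh38 by Cell Ranger 6.1.2, and Seurat 4.3.0 was used downstream. No reads were realigned. Barcodes were kept with 1 hashtag at 80% or more of hashtag UMIs, at most 15% mitochondrial UMIs and at least 7000 UMIs in run 1 or 5000 in run 2, which left 13017 of 24564. Kept blastoid arms held between 10996855 and 88377564 UMIs. No doublet caller was run. Members and gene lists were chosen with earlier results of these data known.

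For each class of each arm the UMIs were added up, and the sums were compared by edgeR 4.0.16 (R 4.3.3; quasi-likelihood, TMM, filterByExpr, Benjamini-Hochberg) with the arm as a block, because both classes come from the same culture and library. Sums needed 10 cells, which left run 2. The dose fits planned under that rule left no residual degree of freedom with the run in the model, so all 8 sums were used, without the arm as a block. The study describes the blastoid runs as independent experiments, and p-values cover these arms only. In the run 2 fit the p-values and SEs rest on a spread common to all genes, not on each gene's own spread between arms. Named genes were the 15 largest changes in each direction among genes that passed the test, had a mean of 20 CPM or more and moved alike in the run 2 arms, besides list members. Ratios within an arm add 5 CPM. Alternatives were DESeq2, other filters, NR2F2 thresholds, purities, thinned cells and left-out arms. The edgeR script was tested on simulated data. Intervals cover counting error only. Some items measured are not reported here.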

Additional observations from a re-analysis of the deposited data

How the results depend on the processing

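The 30 named genes kept their direction in each of the 486 values that the alternatives gave, and 432 of these also passed the test. Every alternative except run 1 alone used run 2 cells, on which these genes were chosen, so this agreement was partly fixed in advance. Run 1 alone tested 14 of the 30, and 8 passed. FABP7, H19, SH3BP5, SCGB3A2, ARHGAP18 and PRAP1 kept their direction there but did not pass. DESeq2's Wald test kept 15 of the 30, and sums of cells thinned to 5000 UMIs kept 17 of the 29 tested. For members against NR2F2-zero cells, main counts of 237 genes higher and 226 lower became 25 and 15 with DESeq2's Wald test, 131 and 127 with all 4 arms, 11 and 13 in run 1 alone, 29 and 17 with thinned sums, 157 and 135 among cells with TE markers at least 4 times epiblast markers, and 94 and 102 with all 4 arms of such cells, an alternative chosen after seeing the data. With classes set on thinned cells, 133 were higher. Without the replicate block, which pairs both classes of an arm, 178 were higher and 154 lower. Leaving out 1 arm of the fit on all 4 arms gave between 36 and 185 genes higher and 27 and 175 lower, with the lowest counts without the run 2 arms (40 and 42 without 0 mM, 36 and 27 without 4 mM).

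Between doses in members, where no gene passed, 17 were higher and 9 lower with no filter on low counts, 28 and 36 with sums of at least 10 cells and no run in the model (chosen after seeing the data), 3 lower among the purer cells (SRM, ALPG and TUBB4A), 1 lower with DESeq2's Wald test, and between 4 and 26 higher and 3 and 36 lower when 1 arm was left out. The fits with an arm left out or with sums of at least 10 cells had 1 residual degree of freedom. For the difference between doses, sums of at least 10 cells without the run gave 1 higher and 2 lower, no filter on low counts gave 1 lower, and DESeq2's Wald test, the purer cells and the fit without the replicate block gave 0 in either direction (these 4 and the sums of at least 10 cells were added after seeing the data), and leaving out 1 arm gave between 0 and 11 higher and 0 and 19 lower. The share of members in run 2 differed by 15.5 percentage points between doses at 2 or more UMIs in cells thinned to 5000, against 33.3 as reported; thinning lowers the number of cells that reach 2 UMIs.

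The run 1 values rest on 5 to 8 NR2F2-zero cells per arm. Both runs hold 1 arm per dose, so within a run a difference between cultures and one between doses cannot be told apart.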

Other observations

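The 40 h aggregates of run 1, which no comparison above uses, held little NR2F2. An NR2F2 UMI was seen in 15 of 1098 aggregate cells at 4 mM (1.37%, Clopper-Pearson interval 0.77 to 2.24%) and in 5 of 1017 at 0 mM (0.49%, 0.16 to 1.14%), with median depths of 28270 and 29672 UMIs. The intervals overlap, and 2 cells at 4 mM and 1 cell at 0 mM carried 2 or more.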
